A study of Mus musculus with 9 samples.

Results

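The simple epithelial keratins Krt7, Krt8, Krt18 and Krt19 were followed by gene symbol in a table of 33924 genes, in which each of the 4 had its own entry, across 9 RNA sequencing libraries of mouse embryonic stem cells. All 4 passed the filter on low counts, as did 14772 genes in all. These genes had been picked because earlier results of the same data showed them low in both perturbed groups, so their differences from wild type are given as a description, with no p-value, and the counts of calls printed for them support nothing. Krt7, Krt8 and Krt18 sit together on chromosome 15, while Krt19 is on chromosome 11.

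The 3 UTX knockout libraries carry the name A6 in their titles. The 3 libraries labelled MLL4 knockdown carry the name JM8A with a further number, and the 3 wild type libraries carry JM8A alone. UTX, encoded by Kdm6a, removes methyl groups from lysine 27 of histone H3, and MLL4, encoded by Kmt2d, adds them to lysine 4 at enhancers. All cells were male, untreated, and kept on gelatin in serum medium with LIF, per the labels. The labels explain neither A6 nor the number, so a difference of line or clone cannot be told apart from the perturbation. Nor do they say whether replicates came from separate cultures, and a p-value here covers no more than the spread among these libraries, which may be technical. Library totals ran between 18570746 and 23874816 counts, and replicate 2 of each group was sequenced in lane 1 while replicates 1 and 3 were in lane 2. Kdm6a stood at 12.8, 16.9 and 19.4 CPM in UTX knockout replicates 1, 2 and 3, against 89.0, 57.1 and 90.6 CPM in wild type, a log2 fold change of -2.27 (SE 0.20). CPM is a count scaled to a common library total, here with TMM, which balances library composition. Kmt2d, listed under its older symbol Mll2, had 71.0, 72.0 and 73.4 CPM in the libraries labelled MLL4 knockdown, against 86.2, 43.5 and 119 CPM in wild type. Those groups overlap, and the log2 change was -0.20 (SE 0.27) at an adjusted p of 0.624 by edgeR's quasi-likelihood test. The knockdown label was thus not borne out against wild type, whose own values spread 2.74-fold, so a partial knockdown could be missed. UTX knockout stood at 110, 96.9 and 130 CPM. The libraries labelled MLL4 knockdown lay below it without overlap, as did 26.9% of all genes tested (log2 -0.64, 95% interval -1.23 to -0.04, adjusted p = 0.0987 by edgeR).

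Keratins build the intermediate filaments of epithelial cells from obligate pairs of a type II and a type I chain. Krt8 and Krt7 are type II chains, and Krt18 and Krt19 are type I chains. Krt8 and Krt18 are the first keratin pair made in the mouse embryo and mark the trophectoderm, the outer layer of the blastocyst, while undifferentiated embryonic stem cells are known for low keratin content.

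The annotated promoters are shown for the 3 of the 4 genes for which a promoter sequence was found. They are RefSeq windows of 300 bases on GRCm38.p6, from 250 bases before the annotated start to 50 after it, read along the gene. The Krt7 window is chr15:101412153-101412452 on the plus strand, the Krt8 window is chr15:102004293-102004592 on the minus strand, and the Krt18 window is chr15:102027966-102028265 on the plus strand. Capitals mark matches on either strand to TATAAA, to the AP-1 letters TGANTCA, to the GC box GGGCGG, to the ETS letters CCGGAA, to the KLF letters CACCC and to the TEAD letters GGAATG. No promoter sequence was found for Krt19, so it is named only.
Krt7: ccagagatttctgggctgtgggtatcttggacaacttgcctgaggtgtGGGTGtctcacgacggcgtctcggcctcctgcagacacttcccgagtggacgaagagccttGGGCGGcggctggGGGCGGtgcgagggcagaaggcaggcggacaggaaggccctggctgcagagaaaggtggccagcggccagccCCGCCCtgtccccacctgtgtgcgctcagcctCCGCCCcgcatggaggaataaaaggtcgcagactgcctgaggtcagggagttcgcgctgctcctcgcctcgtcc
Krt8: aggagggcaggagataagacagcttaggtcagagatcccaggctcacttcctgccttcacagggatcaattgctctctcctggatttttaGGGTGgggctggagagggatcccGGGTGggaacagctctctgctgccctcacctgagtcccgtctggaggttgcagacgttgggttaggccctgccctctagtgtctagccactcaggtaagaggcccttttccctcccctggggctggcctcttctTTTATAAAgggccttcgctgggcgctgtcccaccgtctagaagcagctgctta
Krt18: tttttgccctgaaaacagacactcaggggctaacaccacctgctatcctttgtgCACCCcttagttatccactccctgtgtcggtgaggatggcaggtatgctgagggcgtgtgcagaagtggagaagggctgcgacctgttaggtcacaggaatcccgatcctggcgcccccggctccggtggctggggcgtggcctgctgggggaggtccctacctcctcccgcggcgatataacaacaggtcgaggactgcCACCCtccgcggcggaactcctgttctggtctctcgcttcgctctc
Krt8 and Krt18 point away from each other, with 23373 bases between their windows and 2 annotated genes there, Gm36026 and Gm41404. The windows differed in their letters. Krt7 held 4 matches to the GC box, which 35.7% of 32851 such windows hold at least once, and neither Krt8 nor Krt18 held any. Krt8 held TATAAA on both strands in overlapping positions at the annotated start, a string found in 13.6% of windows. KLF letters occurred once in Krt7 and at 2 places each in Krt8 and Krt18, beside 57.5% of all windows with at least 1. None of the 3 windows held the AP-1, ETS or TEAD letters, which occur in 7.81%, 14.9% and 14.7% of windows. The GC content was 66.3% for Krt7, 58.0% for Krt8 and 61.3% for Krt18, against a median of 52.7% for all windows. These matches describe letters only.

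All 4 keratins were most abundant in wild type replicates 2 and 3, and the mean of each was lower in both perturbed groups. Among the type II chains, Krt8 stood at 9.18, 11.8 and 16.9 CPM in UTX knockout replicates 1, 2 and 3, and at 13.4, 12.6 and 12.0 CPM in the libraries labelled MLL4 knockdown, against 19.7, 211 and 170.3 CPM in wild type. Every perturbed library was below every wild type library, but wild type replicate 1 lay near the perturbed libraries and about an order of magnitude under the other wild type libraries. The mean was 12.6 ± 3.90 CPM in UTX knockout and 12.7 ± 0.701 CPM in the libraries labelled MLL4 knockdown, against 134 ± 101 CPM in wild type (SD, n = 3 each). The log2 fold change was -3.40 (SE 0.63) for UTX knockout and -3.40 (SE 0.63) for the libraries labelled MLL4 knockdown. A processed Krt8 pseudogene, Krt8-ps, is annotated in the mouse genome, so reads shared with it make the exact level of Krt8 uncertain.

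Krt7, the other type II chain and typical of ductal and glandular epithelia, was much scarcer. It stood at 1.62, 3.72 and 3.95 CPM in UTX knockout and at 1.56, 1.31 and 1.37 CPM in the libraries labelled MLL4 knockdown, against 4.15, 32.3 and 26.2 CPM in wild type. The groups again did not touch, although wild type replicate 1 was within 1 CPM of the highest UTX knockout library. The log2 fold change was -2.75 (SE 0.59) in UTX knockout and -3.89 (SE 0.64) in the libraries labelled MLL4 knockdown.

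Krt18, the type I partner of Krt8, stood at 11.2, 19.4 and 24.1 CPM in UTX knockout and at 10.3, 9.23 and 9.92 CPM in the libraries labelled MLL4 knockdown, against 28.7, 231 and 183.9 CPM in wild type. Wild type was above both perturbed groups in every library, again with replicate 1 close to them. The log2 fold change was -3.02 (SE 0.57) in UTX knockout and -3.91 (SE 0.60) in the libraries labelled MLL4 knockdown.

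Krt19, a small type I chain without the usual tail domain, departed from the other 3. It stood at 7.07, 18.5 and 23.4 CPM in UTX knockout and at 2.26, 7.10 and 6.02 CPM in the libraries labelled MLL4 knockdown, against 6.13, 56.6 and 46.0 CPM in wild type. All 3 UTX knockout libraries exceeded wild type replicate 1, and so did replicate 2 of the libraries labelled MLL4 knockdown, so both perturbed groups overlapped wild type. The log2 fold change was -1.15 (SE 0.65) in UTX knockout and -2.81 (SE 0.70) in the libraries labelled MLL4 knockdown.

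**Figure D1:**
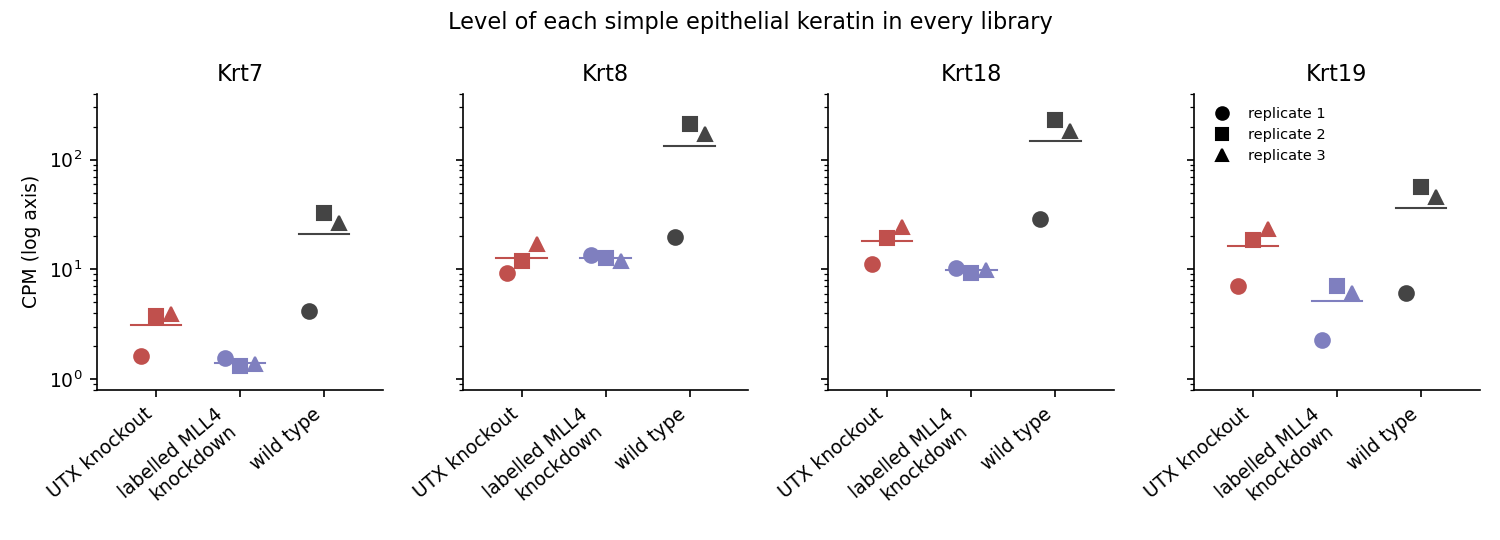
Each point is a library, shaped by replicate number, at its CPM on a log axis, and each line is the mean of a group of 3. Wild type replicate 1 sits near the perturbed libraries in every panel, and the Krt19 panel is the only panel of the 4 in which both perturbed groups overlap wild type.

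Thus 3 of the 4 genes lay below wild type without overlap in UTX knockout, as did 16% of all genes tested, and the same 3 did so in the libraries labelled MLL4 knockdown, as did 22.4% of all genes. By edgeR's adjusted p, 3 of 4 were lower in UTX knockout (4 of 4 with the replicate number as a block), beside 8.92% of all genes. In the libraries labelled MLL4 knockdown 4 of 4 were lower, beside 15.8% of all genes. Nothing is read from these counts, because the genes were chosen on these contrasts. In bulk RNA, fewer keratin-expressing cells and less keratin RNA per cell cannot be told apart.

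The spread inside the wild type group was itself among the widest in the table. The highest wild type library exceeded the lowest 10.7-fold for Krt8, 9.23-fold for Krt19, 8.03-fold for Krt18 and 7.77-fold for Krt7, against a median of 1.41-fold over 14754 genes. Only 0.352% of genes were spread at least as widely as Krt8, and 0.671% at least as widely as Krt7. Replicate 1 was the low library for each. Over all genes tested, 103 (0.697%) were at least 4-fold lower in wild type replicate 1 than in both other wild type libraries, while 32 (0.217%) were at least 4-fold higher. Highest-to-lowest ratios were smaller in the perturbed groups. The highest-to-lowest ratio was 2.44 for Krt7, 1.84 for Krt8, 2.16 for Krt18 and 3.32 for Krt19 in UTX knockout, which 6.63%, 14.3%, 9.04% and 3.00% of genes matched or passed, around a median of 1.27. It was 1.19, 1.12, 1.12 and 3.14 for the same genes in the libraries labelled MLL4 knockdown, where Krt19 replicate 1 stood apart as the low library and 2.89% of genes were at least as widely spread as Krt19.

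Libraries that share a replicate number deviated together across genes, most strongly for replicate 1 and weakly for replicate 2. Each keratin was therefore also compared number by number. Krt8 in UTX knockout differed from wild type by log2 ratios of -1.10, -4.15 and -3.34 in replicates 1, 2 and 3, while the libraries labelled MLL4 knockdown differed by -0.56, -4.07 and -3.83. Krt18 differed by -1.36, -3.57 and -2.93 in UTX knockout, and it differed by -1.48, -4.64 and -4.21 in the libraries labelled MLL4 knockdown. The ratio was nearest 0 in replicate 1 in each of these comparisons. Krt7 gave -1.36, -3.12 and -2.73 in UTX knockout, while the libraries labelled MLL4 knockdown gave -1.41, -4.62 and -4.25. Krt19 gave 0.21, -1.61 and -0.97 in UTX knockout, so that its replicate 1 pair ran the other way, while the libraries labelled MLL4 knockdown gave -1.44, -2.99 and -2.93. Replicate 2 is the sole lane 1 pair. Within lane 2, with 2 libraries a group, the fitted log2 fold changes of Krt7, Krt8, Krt18 and Krt19 were -2.44, -2.87, -2.59 and -0.78 in UTX knockout. Those of the libraries labelled MLL4 knockdown were -3.37, -2.91, -3.39 and -2.64. All 8 lane 2 values had the sign of the replicate 2 pair from lane 1.

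**Figure D2:**
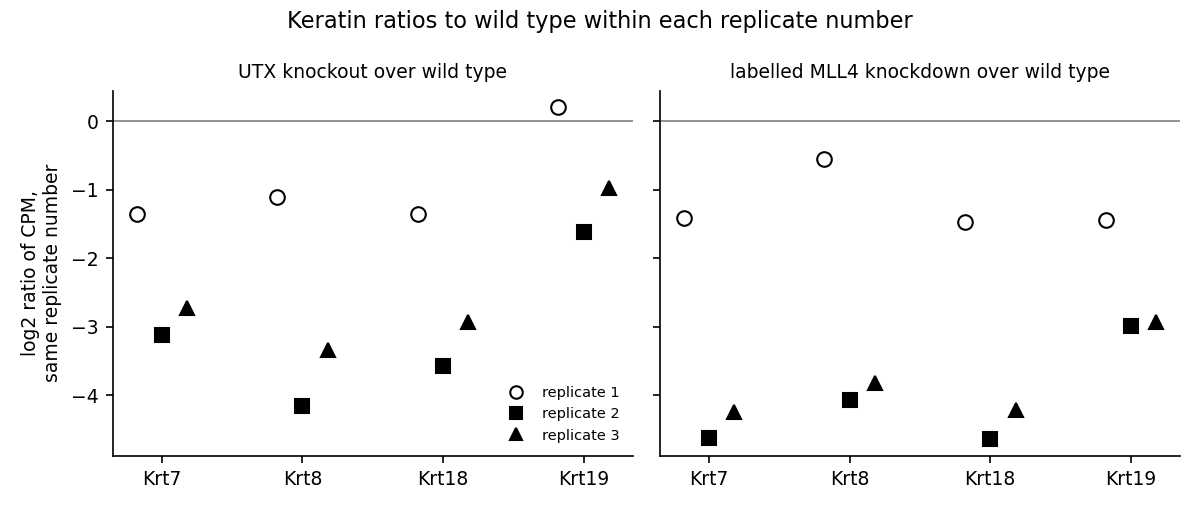
Points are log2 ratios of CPM between a perturbed library and the wild type library of the same replicate number, for UTX knockout on the left and the libraries labelled MLL4 knockdown on the right. The open circles, replicate 1, lie closest to the line at 0 for all 4 keratins in both panels, and the Krt19 circle for UTX knockout lies above it at 0.21.

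Set against each other directly, the perturbed groups differed past the threshold in none of the 4 keratins, with Krt19 the nearest to it. Krt19 was lower in the libraries labelled MLL4 knockdown than in UTX knockout by a log2 fold change of -1.66 (95% interval -3.18 to -0.14, adjusted p = 0.0937 by edgeR's quasi-likelihood test over all genes), and lower in 3 of 3 same-numbered pairs. With the replicate number as a block the value was -1.71 with an adjusted p of 0.00124 by edgeR. That block rests on a pairing read from the data, which was weak for replicate 2. Krt7 differed by -1.14 (95% interval -2.57 to 0.29, adjusted p = 0.214 by edgeR), and Krt18 by -0.89 (95% interval -2.14 to 0.35, adjusted p = 0.259 by edgeR). Both lay below UTX knockout without overlap, as did 26.9% of all genes tested. Krt8 differed by 0.00 (95% interval -1.33 to 1.33, adjusted p = 0.998 by edgeR), an interval wide enough to hold a doubling in either direction. By edgeR 0 of 4 passed an adjusted p of 0.05, beside 28.9% of all genes in either direction, and Krt19 alone had an unadjusted p below 0.05. DESeq2 also gave 0. Wild type libraries do not enter these differences, but wild type replicate 1 enters the shared estimate of spread. Without it the adjusted p by edgeR was 0.0147 for Krt7, 0.0114 for Krt18 and 0.0116 for Krt19, and with the 2 perturbed groups fitted alone it was 0.0234, 0.0144 and 0.0168 for the same genes.

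Per kilobase of exon, Krt18 had the highest mean level in each group. Mean levels in UTX knockout were 12.7 ± 4.56 CPM per kilobase for Krt18, 10.4 ± 5.33 for Krt19, 6.45 ± 1.99 for Krt8 and 0.756 ± 0.313 for Krt7. Among the libraries labelled MLL4 knockdown they were 6.84 ± 0.386 for Krt18, 6.47 ± 0.358 for Krt8, 3.25 ± 1.61 for Krt19 and 0.346 ± 0.0316 for Krt7. Wild type means were 103 ± 73.6 for Krt18, 68.3 ± 51.5 for Krt8, 23.0 ± 16.9 for Krt19 and 5.10 ± 3.61 for Krt7 (SD, n = 3 each). In wild type the order Krt18, Krt8, Krt19, Krt7 held in each of the 3 libraries despite their spread. In UTX knockout Krt19 overtook Krt8 in replicates 2 and 3, while among the libraries labelled MLL4 knockdown Krt18 and Krt8 did not differ beyond their spread.

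The make-up of the keratin RNA, a ratio within a library that depth does not move, is given here as shares that were not tested. Krt19 supplied 24.3%, 34.6% and 34.3% of the counts of the 4 genes in UTX knockout and 8.20%, 23.5% and 20.5% among the libraries labelled MLL4 knockdown, against 10.4%, 10.7% and 10.8% in wild type. The wild type share was therefore nearly constant, replicate 1 included, although its summed level was 58.7 CPM in replicate 1 and 531 and 426 CPM in replicates 2 and 3. Krt8 supplied 31.6%, 22.2% and 24.6% in UTX knockout and 48.6%, 41.6% and 40.9% among the libraries labelled MLL4 knockdown, against 33.6%, 39.8% and 39.9% in wild type. UTX knockout was lowest and the groups did not overlap. Summed over the 4 genes, levels were 29.1, 53.5 and 68.4 CPM in UTX knockout and 27.5, 30.2 and 29.3 CPM in the libraries labelled MLL4 knockdown.

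**Figure D3:**
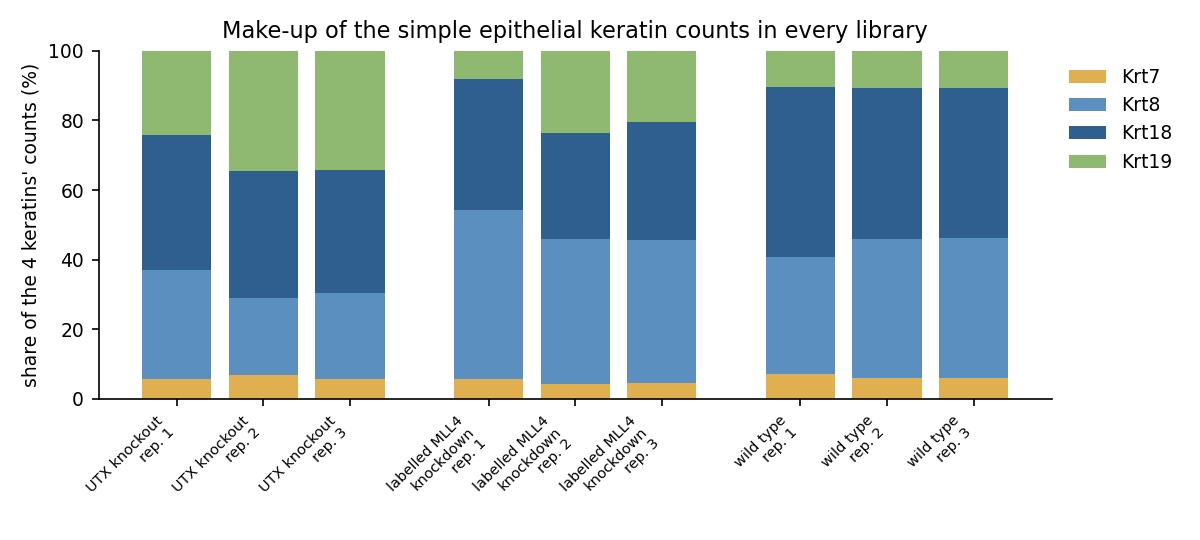
Each bar is a library, divided into the percentage of the counts of the 4 keratins that came from each gene. The Krt19 segment is near 10.7% in all 3 wild type bars and between 24.3% and 34.6% in the UTX knockout bars.

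The ratio of Krt8 to its partner Krt18 was 1.30, 1.36 and 1.21 in the libraries labelled MLL4 knockdown, against 0.820, 0.610 and 0.698 in UTX knockout, without overlap. In wild type it was 0.687, 0.915 and 0.926. The log2 ratio was 0.87 higher in the libraries labelled MLL4 knockdown than in UTX knockout, with an exact two-sided permutation p = 0.1, which is the smallest that 3 against 3 allows, and an adjusted p of 0.15 over 3 ratios. The ratio of type II to type I counts was 1.19, 0.850 and 0.839 in the libraries labelled MLL4 knockdown, against 0.591, 0.410 and 0.437 in UTX knockout. It was 1.00 higher in log2 (exact permutation p = 0.1, adjusted p = 0.15). In wild type this ratio was 0.686, 0.847 and 0.854. The ratio of Krt19 to Krt18, chosen after its values were seen, was 0.219, 0.770 and 0.607 in the libraries labelled MLL4 knockdown, against 0.632, 0.953 and 0.971 in UTX knockout (log2 difference -0.84, exact permutation p = 0.2, adjusted p = 0.2). It was 0.213, 0.245 and 0.250 in wild type, below every perturbed library except replicate 1 of the libraries labelled MLL4 knockdown, which lay among the wild type values.

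Most other keratins were silent. The table held 51 keratin entries, 28 of type I and 23 of type II. Of the other 47, 14 had 0 counts in all 9 libraries, 15 had 1 to 9 counts in all, 12 more failed the filter and 6 were tested, all of type I. Among those at 0 were the hair keratins Krt31 and Krt81. The epidermal pair Krt5 and Krt14, named after its values were seen, totalled 12 and 56 counts over the 9 libraries. The 4 simple epithelial keratins supplied 50.6%, 62.4% and 62.9% of all keratin counts in UTX knockout and 48.8%, 38.7% and 37.8% among the libraries labelled MLL4 knockdown, against 77.4%, 91.3% and 91.6% in wild type. No other type II keratin was tested.

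Of the 6 tested, 0 rose and 1 fell in UTX knockout, and 1 rose and 2 fell in the libraries labelled MLL4 knockdown. The count of 0 was also 0 at an unadjusted p under 0.05 and by DESeq2. Over all genes 6.55% were higher and 8.92% lower in UTX knockout, against 10.8% and 15.8% in the libraries labelled MLL4 knockdown. Krt20, a type I keratin of intestinal and urothelial epithelia, was at 0.736, 0.476 and 0.604 CPM in UTX knockout and 0.484, 0.181 and 0.310 CPM in the libraries labelled MLL4 knockdown, against 0.883, 2.86 and 1.97 CPM in wild type. It fell by 1.66 in UTX knockout (adjusted p = 0.0304 by edgeR, up to 0.127 without UTX knockout replicate 2 or 3, wild type replicate 2 or 3, or replicate 3 labelled MLL4 knockdown). It fell by 2.56 in the libraries labelled MLL4 knockdown (adjusted p = 0.00344 by edgeR). Krt17, a keratin of wounded and basal epithelia, stood at 8.69, 12.7 and 16.5 CPM in UTX knockout and 12.0, 20.2 and 20.0 CPM in the libraries labelled MLL4 knockdown, against 3.79, 11.04 and 9.27 CPM in wild type. It ran opposite to the 4, with a log2 fold change of 1.11 in the libraries labelled MLL4 knockdown (adjusted p = 0.0396 by edgeR, 0.052 without wild type replicate 1), and 0.65 in UTX knockout (adjusted p = 0.245 by edgeR, 0.0191 with the replicate block). The Krt17 call also ended without wild type replicate 3, UTX knockout replicate 2, or replicate 2 or 3 labelled MLL4 knockdown, at up to 0.124. Krt16, which pairs with Krt6 chains in wounded skin, fell by 1.56 in the libraries labelled MLL4 knockdown (adjusted p = 0.0388 by edgeR, up to 0.142 with a library left out, the call ending without any 1 of the libraries labelled MLL4 knockdown, UTX knockout replicate 2, or wild type replicate 2 or 3). It stayed at or under 1.08 CPM in every library. Krt10, Krt13 and Krt42 passed no threshold against wild type. Krt42 stood at 12.2, 13.0 and 19.3 CPM in UTX knockout and 12.9, 24.5 and 24.5 CPM in the libraries labelled MLL4 knockdown, against 6.13, 29.6 and 23.0 CPM in wild type. Krt16, Krt17 and Krt42 are close in sequence, so reads split between them make their levels uncertain.

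Among other intermediate filament genes, Nes fell in both perturbed groups, and Vim fell in UTX knockout but rose among the libraries labelled MLL4 knockdown. Of 15 tested, 0 rose and 5 fell in UTX knockout, beside 6.55% of all genes higher and 8.92% lower, and 2 rose and 2 fell in the libraries labelled MLL4 knockdown, beside 10.8% and 15.8%. In UTX knockout the 0 was 1 at an unadjusted p under 0.05 and 1 with the replicate block. By DESeq2 it was 0, and it was 2 without wild type replicate 1. The 5 was 3 without UTX knockout replicate 2 and 9 with the replicate block. In the libraries labelled MLL4 knockdown the 2 higher became 1 without replicate 1 or 2 of that group or wild type replicate 3. The 2 lower became 4 without wild type replicate 2 or with the replicate block. Their median log2 fold change was -0.56 and -0.02, against -0.01 and -0.02 over all genes. Vim, the vimentin gene of mesenchymal cells, stood at 59.6, 51.4 and 62.0 CPM in UTX knockout and 160, 118 and 120 CPM in the libraries labelled MLL4 knockdown, against 93.5, 91.1 and 80.9 CPM in wild type. It was lowest in UTX knockout (-0.62, adjusted p = 0.0134 by edgeR, 0.0703 without UTX knockout replicate 2) and highest in the libraries labelled MLL4 knockdown (0.58, adjusted p = 0.01 by edgeR). Nes, the nestin gene of neural progenitors, fell by 1.40 in UTX knockout (adjusted p = 0.00231) and by 3.19 in the libraries labelled MLL4 knockdown (adjusted p = 7.79e-06, both by edgeR). Ina and Nefm, neuronal filament genes, fell in UTX knockout by 1.72 and 1.90. Des, the muscle desmin gene, fell by 1.91 in the libraries labelled MLL4 knockdown, and the astrocyte gene Gfap, at no more than 1.08 CPM, rose by 1.86 (adjusted p = 0.0144 by edgeR, up to 0.0547 without replicate 1 or 2 labelled MLL4 knockdown or wild type replicate 3).

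Some genes that anchor keratins to the cell surface fell in UTX knockout, and some rose and some fell in the libraries labelled MLL4 knockdown. Of 17 desmosome and linker genes tested, 0 rose and 4 fell in UTX knockout, and 4 rose and 3 fell in the libraries labelled MLL4 knockdown, with medians of 0.13 and -0.17. Over all genes 6.55% were higher and 8.92% lower in UTX knockout, against 10.8% and 15.8% in the libraries labelled MLL4 knockdown. The 0 that rose in UTX knockout and the 3 that fell in the libraries labelled MLL4 knockdown are near those shares. In UTX knockout the 0 was 2 at an unadjusted p under 0.05 and 2 with the replicate block. By DESeq2 it was 0, and it was 1 without wild type replicate 2. The 4 was 2 without UTX knockout replicate 2. In the libraries labelled MLL4 knockdown the 4 was 2 without replicate 1 or 3 of that group, and the 3 was 5 without wild type replicate 1. Dsp encodes desmoplakin, which ties keratin filaments to desmosomes. It stood at 8.34, 7.999 and 7.75 CPM in UTX knockout and 5.33, 3.39 and 3.45 CPM in the libraries labelled MLL4 knockdown, against 12.2, 25.0 and 40.6 CPM in wild type. It fell by 1.69 in UTX knockout (adjusted p = 0.0091) and by 2.68 in the libraries labelled MLL4 knockdown (adjusted p = 0.000492, both by edgeR), again with wild type replicate 1 lowest of its group. Fam83h, whose human protein organises keratin filaments, fell by 1.24 in UTX knockout. Dsg2, the desmoglein of simple epithelia, stood at 26.2, 27.97 and 29.7 CPM in UTX knockout and 98.7, 102 and 103 CPM in the libraries labelled MLL4 knockdown, against 37.0, 50.8 and 79.1 CPM in wild type. It fell by 0.99 in UTX knockout (adjusted p = 0.0121 by edgeR, 0.0537 without UTX knockout replicate 2) and rose by 0.86 in the libraries labelled MLL4 knockdown. Its partner desmocollin Dsc2 fell by 1.25 in UTX knockout (adjusted p = 0.0374 by edgeR, up to 0.13), a call that ended without any 1 library other than wild type replicate 1 and replicate 1 labelled MLL4 knockdown. The plakophilin gene Pkp2 fell by 1.56 and the periplakin gene Ppl by 0.87 in the libraries labelled MLL4 knockdown, while Pkp4 rose by 0.46.

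Junction and surface genes of simple epithelia were lower mainly in the libraries labelled MLL4 knockdown. There 13 of 21 tested fell and 0 rose, with a median of -1.14, against 6 lower and 2 higher in UTX knockout, with a median of -0.25. Of all genes, 15.8% fell and 10.8% rose among the libraries labelled MLL4 knockdown, and 8.92% fell and 6.55% rose in UTX knockout. The 0 was also 0 at an unadjusted p under 0.05 and by DESeq2, while in UTX knockout the 6 was 3 without UTX knockout replicate 2 and the 2 was 1 without any 1 wild type library, UTX knockout replicate 2 or 3, or replicate 2 labelled MLL4 knockdown. Between the perturbed groups, 14 of the 21 were lower and 0 higher in the libraries labelled MLL4 knockdown, beside 16% and 13% of all genes. The count of 0 higher was 1 at an unadjusted p under 0.05, by DESeq2, with the replicate block, and without UTX knockout replicate 1 or wild type replicate 1 or 2. Cdh1, the E-cadherin gene, stood at 247, 213 and 211 CPM in the libraries labelled MLL4 knockdown, at 497, 643 and 674 CPM in UTX knockout, and at 783, 603 and 780.1 CPM in wild type. It fell by 1.69 against wild type in the libraries labelled MLL4 knockdown (adjusted p = 3.15e-05 by edgeR), while UTX knockout overlapped wild type. The claudin gene Cldn6 fell by 1.03 in UTX knockout (adjusted p = 0.00042) and by 2.60 in the libraries labelled MLL4 knockdown (adjusted p = 7.27e-07, both by edgeR). Esrp1, an epithelial splicing regulator, fell by 0.71 and by 2.19 in the same comparisons. Cgn, the cingulin gene, fell by 0.75 in UTX knockout, Spint1, a protease inhibitor gene, rose by 0.75 there, and Cldn4 fell by 1.78 in the libraries labelled MLL4 knockdown. Wild type replicate 1 did not stand apart for Cdh1 or Cldn6 as it did for the keratins, but this did not hold for the whole list. For the claudin gene Cldn3, leaving it out moved the log2 fold change from -1.09 to -1.47 in UTX knockout. In the libraries labelled MLL4 knockdown the Cldn3 value moved from -1.61 to -1.98.

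**Figure D4:**
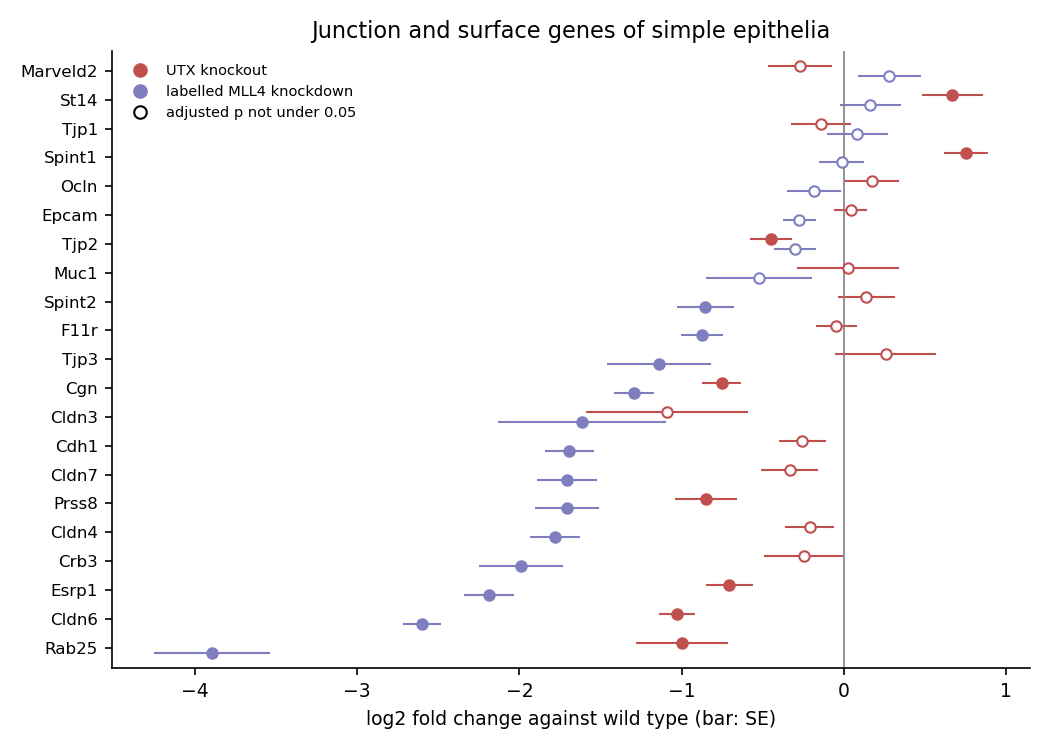
Points are log2 fold changes against wild type with bars of 1 SE for 21 junction and surface genes, coloured by perturbed group and open where the adjusted p was not under 0.05. The libraries labelled MLL4 knockdown lie left of 0 for the 13 filled points, among them Cldn6 at -2.60 and Cdh1 at -1.69.

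The next list held transcription factors of families known to act on keratin promoters, with co-activators of TEAD factors. Of 26 tested, 3 rose and 6 fell in UTX knockout (11 fell with the replicate block), and 3 rose and 11 fell in the libraries labelled MLL4 knockdown, with medians of -0.31 and -0.62. The shares of all genes were 6.55% higher and 8.92% lower in UTX knockout with 10.8% and 15.8% among the libraries labelled MLL4 knockdown, where the 3 higher are near that share. The 6 was 1 without UTX knockout replicate 2 and 3 without UTX knockout replicate 1 or wild type replicate 3, without which the 3 higher became 5 in both comparisons. Ets1, an ETS factor, stood at 3.04, 3.24 and 2.51 CPM in UTX knockout and 1.78, 1.90 and 1.68 CPM in the libraries labelled MLL4 knockdown, against 7.37, 10.1 and 12.6 CPM in wild type. It fell by 1.77 (adjusted p = 0.00103) and by 2.48 (adjusted p = 5.09e-05, both by edgeR). Elf3, an epithelial ETS factor, rose by 1.35 in UTX knockout, as did Wwtr1, which encodes the TEAD co-activator TAZ, by 0.81, and the AP-1 gene Jun fell by 1.49 (adjusted p = 0.0103 by edgeR, 0.0549 without UTX knockout replicate 2). Klf4 rose by 1.47 in the libraries labelled MLL4 knockdown, and Tcfap2c, an AP-2 factor of trophectoderm, fell by 1.26, as did the grainyhead factor Grhl2 by 1.56.

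Markers of other cells moved with the keratins in part, and their part in the keratin levels was not tested. Summed over 17 feeder, fibroblast and smooth muscle markers, levels were 32.7, 43.2 and 46.0 CPM in UTX knockout. They were 46.4, 41.5 and 42.3 CPM in the libraries labelled MLL4 knockdown, against 92.3, 258 and 194 CPM in wild type, where replicate 1 was lowest. Tagln, a smooth muscle gene, alone supplied 31.2, 158 and 103 CPM of the wild type sums. Tagln and Acta2 together carried the low replicate 1, which the rest of the list did not share in sum. Of 11 tested, 0 rose and 7 fell in UTX knockout and 0 rose and 9 fell in the libraries labelled MLL4 knockdown (5 without replicate 2 of that group). Of all genes, 8.92% were lower in UTX knockout and 15.8% among the libraries labelled MLL4 knockdown, with 6.55% and 10.8% higher. Each count of 0 was 0 by DESeq2 and 1 without wild type replicate 1. At an unadjusted p under 0.05 it was 0 for UTX knockout and 1 for the libraries labelled MLL4 knockdown. The replicate block likewise gave 0 for UTX knockout and 1 for the libraries labelled MLL4 knockdown. The fibroblast gene Lum was at 0 in all libraries, and Dcn, Prrx1 and Postn were at or under 0.27 CPM. The contractile gene Acta2 was at 0.245, 1.08 and 0.789 CPM in UTX knockout and 6.62, 8.06 and 8.37 CPM in the libraries labelled MLL4 knockdown, against 3.84, 50.8 and 43.9 CPM in wild type. Its log2 fold change in UTX knockout was -5.51 (adjusted p = 0.00245 by edgeR). Myl9 fell by 2.52, Cnn1 by 1.60 and Col6a1 by 2.96 in UTX knockout, and Cnn1 by 2.56, Col6a1 by 1.77 and Thy1 by 2.28 in the libraries labelled MLL4 knockdown.

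The 16 trophectoderm markers summed to between 214 and 265 CPM in UTX knockout and 148 and 168 CPM in the libraries labelled MLL4 knockdown, against 294 and 366 CPM in wild type. Of 13 tested, 1 rose and 5 fell in UTX knockout, and 1 rose and 7 fell in the libraries labelled MLL4 knockdown. The 1 higher in each comparison is near the share of all genes, 6.55% for UTX knockout and 10.8% for the libraries labelled MLL4 knockdown; 8.92% and 15.8% of all genes were lower. The 5 was 1 without any 1 UTX knockout library or wild type replicate 3, 2 without wild type replicate 2 and 3 without replicate 2 or 3 labelled MLL4 knockdown. With the replicate block the 5 became 7. The 1 higher in the libraries labelled MLL4 knockdown became 2 without wild type replicate 3 or with the replicate block. Cdh3, the P-cadherin gene, fell by 1.40 (adjusted p = 0.000648) and by 2.66 (adjusted p = 5.39e-06, both by edgeR). The placental gene Esx1 fell by 3.19 and the FGF receptor gene Fgfr2 by 1.62 in the libraries labelled MLL4 knockdown. In UTX knockout Gata3 fell by 1.59, Fgfr2 by 0.78 and Tead4 rose by 0.96, at adjusted p of 0.0264, 0.0307 and 0.038 by edgeR. Each of these 3 calls ended without any 1 UTX knockout library, with the adjusted p reaching 0.11, 0.108 and 0.111. The Gata3 call was lost too without wild type replicate 2 or 3, the Fgfr2 call without wild type replicate 1 or 3, and the Tead4 call without wild type replicate 1 or 2 or replicate 2 or 3 labelled MLL4 knockdown. The defining factor Cdx2 was at no more than 1.34 CPM, Elf5 at no more than 0.22 CPM and Prl3d1 at 0. At that low level Cdx2 fell by 2.82 in UTX knockout (adjusted p = 0.0394 by edgeR, up to 0.132 with a library left out). The Cdx2 call survived only the loss of wild type replicate 1 or of replicate 1 labelled MLL4 knockdown. For the other perturbed group Cdx2 was not called (-0.98, adjusted p = 0.311 by edgeR), except without wild type replicate 1 (-1.45, adjusted p = 0.0412). Eomes did not separate the groups.

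Markers of other lineages ranged from absent to abundant. Of 14 primitive and visceral endoderm markers tested, 2 rose and 2 fell in UTX knockout and 4 rose and 2 fell in the libraries labelled MLL4 knockdown. The 2 higher in UTX knockout became 1 without UTX knockout replicate 2 or 3, replicate 2 or 3 labelled MLL4 knockdown, or wild type replicate 1 or 2. The 2 lower in the libraries labelled MLL4 knockdown became 1 without any 1 of them or wild type replicate 2 or 3. Those 2 are near the 15.8% of all genes that were lower there, where 10.8% were higher; in UTX knockout 6.55% of all genes were higher and 8.92% lower. Summed over 18 markers, levels ran from 1075 to 1958 CPM in UTX knockout and from 571 to 956 CPM in the libraries labelled MLL4 knockdown. Wild type stood at 752, 1482 and 1485 CPM in replicates 1, 2 and 3, and replicate 1 was lowest in every group. Ttr was at 0. Hnf4a reached no more than 1.40 CPM and fell in both comparisons. It fell by 4.64 in UTX knockout (adjusted p = 0.00477) and by 4.61 in the libraries labelled MLL4 knockdown (adjusted p = 0.00218, both by edgeR). Dab2 fell by 1.42 in UTX knockout (adjusted p = 0.0103 by edgeR). In the libraries labelled MLL4 knockdown Dab2 rose by 0.88 (adjusted p = 0.036 by edgeR, up to 0.105 with a library left out). Pdgfra rose by 1.13 in UTX knockout and by 2.59 in the libraries labelled MLL4 knockdown, where Cubn rose by 2.78 and Gata6 by 1.52. Of the 9 markers of stratified epithelium, Ivl and Dsg1a were at 0, Trp63 was at or under 0.13 CPM, and of 3 tested 0 rose in either comparison, also at an unadjusted p under 0.05 and by DESeq2. Sfn fell by 1.18 in UTX knockout (adjusted p = 0.0374 by edgeR, up to 0.151), a call that ended without any 1 library other than wild type replicate 1 and replicate 1 labelled MLL4 knockdown. Cdsn fell by 1.40 in the libraries labelled MLL4 knockdown, where Col17a1 fell by 0.91 (adjusted p = 0.0353 by edgeR, up to 0.108 without any 1 of those libraries or wild type replicate 2 or 3). The summed level of the stratified markers was 45.2 to 69.5 CPM in UTX knockout and 149.5 to 187 CPM in the libraries labelled MLL4 knockdown. In wild type it was 57.4 CPM in replicate 1, against 183 and 141 CPM in replicates 2 and 3. The 13 embryonic stem cell markers had summed levels of 7169 to 7974 CPM in UTX knockout. Their sums were 7542 to 8296 CPM in the libraries labelled MLL4 knockdown, against 5879 to 6946 CPM in wild type. Pou5f1 stood at 969, 1122 and 1143 CPM in UTX knockout and 900.0, 1178 and 1096 CPM in the libraries labelled MLL4 knockdown, against 673, 1187 and 828 CPM in wild type. Of 13 stem cell identity genes tested, 1 rose and 3 fell in UTX knockout, and 5 rose and 4 fell in the libraries labelled MLL4 knockdown. Of all genes, 6.55% were higher and 8.92% lower in UTX knockout, where the 1 higher is near that share, with 10.8% and 15.8% among the libraries labelled MLL4 knockdown. The 1 was 3 with the replicate block or without UTX knockout replicate 1. It was 2 without any 1 wild type library or replicate 1 labelled MLL4 knockdown. Tcfcp2l1, a naive pluripotency factor, rose by 1.40 in UTX knockout and by 1.89 in the libraries labelled MLL4 knockdown, and Fbxo15 fell by 0.77 and by 1.21.

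Over the 9 libraries, each of 9965 genes with a mean log2 CPM of at least 2 was centred on its own mean and set against the mean centred profile of Krt8 and Krt18 by the root mean square difference in log2. Krt7 was nearer than any of these genes, at 0.29, while 19 of them were nearer than Krt19, at 0.94. Such nearness was in part fixed in advance, since the 4 keratins were picked as low in both perturbed groups of these same libraries. Krt8 and Krt18 lay 0.40 apart, and the median gene lay 1.67 away. The 10 nearest included Tagln (0.39), a smooth muscle actin-binding gene, the imprinted growth factor gene Igf2 (0.45), the membrane protein gene Pmp22 (0.55), the annexin gene Anxa3 (0.68), the homeobox gene Rhox6 (0.73), Dsp (0.77), the galectin gene Lgals1 (0.80), the integrin gene Itga1 (0.85) and the actin-severing gene Gsn (0.85). Tagln stood at 6.72, 20.2 and 20.7 CPM in UTX knockout and 10.4, 9.05 and 9.92 CPM in the libraries labelled MLL4 knockdown, against 31.2, 158 and 103 CPM in wild type. Both perturbed groups lay below every wild type library, with wild type replicate 1 between them and the other 2. With profiles centred within each group instead, 4 of the 10 were again among the nearest 10, among them Igf2, Anxa3 and Rhox6, while Tagln was at rank 16.

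**Figure D5:**
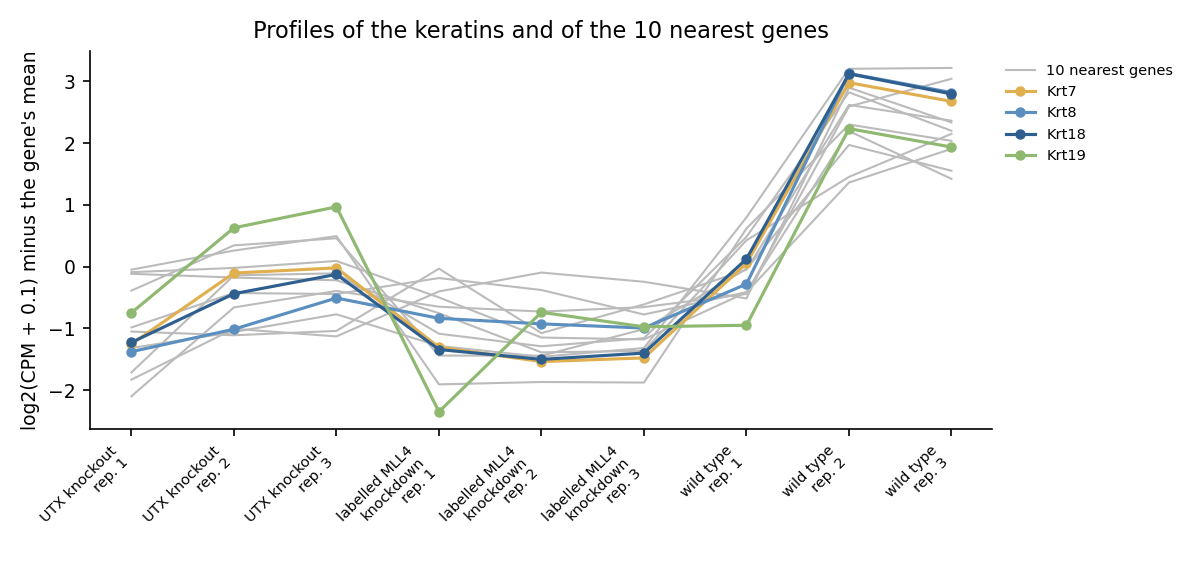
Lines are profiles over the 9 libraries as log2 of CPM plus 0.1, each minus its own mean, for the 4 keratins in colour and the 10 nearest genes in grey. The step up in wild type replicates 2 and 3, without replicate 1, is shared by the keratins. All 10 grey lines share it because they were picked for likeness to Krt8 and Krt18 over these same libraries. Krt19 rises above the other keratins in UTX knockout.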

How the data were processed

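RNA was measured in 9 libraries of mouse embryonic stem cells, 3 in each of 3 groups. The authors deposited raw read counts per gene symbol; the submitters' processing notes name HTSeq 0.6.1, STAR 2.4, hg19 and mm9 without their roles. Neither annotation nor strand setting is given in the sources used here, so reads of antisense partners cannot be told apart. Library totals of 18570746 to 23874816 counts limit the precision of low genes such as Krt7.

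Genes were filtered with filterByExpr and tested in edgeR 4.0.16 (R 4.3.3) with TMM scaling and the quasi-likelihood test, two-sided, over 9 libraries with group as the term. Benjamini-Hochberg adjusted p under 0.05 over 14772 genes made a call. CPM used TMM-scaled totals, and exon lengths came from GENCODE M21. Intervals are at 95%, and ratios between keratins were compared by exact permutation. The fit was tested on simulated data. All replicate pairs differed beyond counting noise (chi-square over its degrees of freedom 6.42 to 56.5). Same-numbered libraries deviated together (correlations 0.168 to 0.467 over 9 pairs). Libraries of unlike number ran from -0.412 to 0.226, so replicates 2 and 3 were not cleanly told apart. Replicate 2 labelled MLL4 knockdown correlated at 0.226 with UTX knockout replicate 3 and at 0.181 with UTX knockout replicate 2. The numbers were taken to pair the samples from the data, not the labels. The replicate block is given for some of the calls and counts that it changes, not for all.

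Named genes were the 4 keratins, tested keratins, the 10 nearest profiles and up to 4 genes of smallest p per list and comparison with wild type; 1 gene of nearest profile is not reported here. Members and lists were chosen with earlier results of these data known. Alternatives were DESeq2 1.42.0, its size factors, library totals, other filters, the block, lane 2 alone, groups alone and each library left out.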

Additional observations from a re-analysis of the deposited data

How the results depend on the processing

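The 4 keratins stayed below wild type in both perturbed groups under all 17 alternatives each. With each library left out in turn, the log2 fold change in UTX knockout ran from -3.21 to -2.29 for Krt7, -3.90 to -2.91 for Krt8, -3.49 to -2.54 for Krt18 and -1.63 to -0.68 for Krt19. In the libraries labelled MLL4 knockdown it ran from -4.35 to -3.42, -3.89 to -2.91, -4.38 to -3.44 and -3.28 to -2.34 for the same genes. In lane 2 alone, with 2 libraries a group, 0 and 1 of the 4 keratins passed against wild type in these 2 comparisons. Between the libraries labelled MLL4 knockdown and UTX knockout, 1 keratin passed with the replicate block and with no filter (Krt19, log2 fold change -1.71 and -1.63). With groups alone 3 passed (Krt7 -1.13, Krt18 -0.89, Krt19 -1.65), and 0 to 3 with a library left out, when Krt7 ran from -1.44 to -0.93, Krt18 from -1.15 to -0.64 and Krt19 from -2.02 to -1.31. Krt8, at 0.00 between these groups, was -0.00958 with the stricter filter, -0.0376 in lane 2, and -0.18 to 0.26 with a library left out. The log2 ratio of type II to type I in Krt8 and Krt18 alone against wild type was -0.25 for UTX knockout and 0.63 for the libraries labelled MLL4 knockdown, compared with -0.74 and 0.26 with all 4 genes. Over all genes in UTX knockout, 968 were called higher and 1317 lower. The higher count was 1551 with the replicate block, 483 with groups alone, 19 in lane 2 and 330 to 1312 with a library left out. The lower count was 757 with groups alone, 55 in lane 2 and 503 to 1542 with a library left out. In the libraries labelled MLL4 knockdown 1592 were called higher (427 in lane 2, 797 to 1796 with a library left out) and 2338 lower (914 in lane 2, 1476 to 2412). Between the perturbed groups 1915 were higher (625 in lane 2, 1011 to 2469) and 2360 lower (910 in lane 2, 1545 to 2812). Lane 2 and left-out fits hold fewer samples; other causes were not tested.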
